A study of Mus musculus with 2 samples.

Results

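The translation initiation and elongation factors described here are the autosomal protein-coding genes whose symbol begins with Eif or Eef followed by a digit. Matching the tables' gene identifiers, without their version, to mouse symbols gave 64 such genes, out of 20337 autosomal protein-coding genes and 43346 gene identifiers in all. The rule used names only, and no measured value. Another annotated gene of the same kind, Eef1akmt4, is not analysed here. The samples were 2 RNA libraries of 1 group, labelled biological replicates 1 and 2. Each was made by a Smart-seq type protocol from a pool of 50 laser-captured layer 5 pyramidal neurons of wild-type male mice 8 months of age. RNA of over 200 nt was used, and spike-in RNAs were added. One label gives the strain as B6NCrl and others give C57Bl5 and C57Bl6, and an antibody tag reads Control. No treatment or second condition was studied, so the comparisons are between genes within a library and between the libraries. Both libraries carry 1 donor identifier, so it is open from the labels whether the animals differed, and the SDs given here may be technical. With 2 libraries an exact two-sided permutation test cannot give a p below 0.5, so differences are given with their SD and no p.

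Initiation factors bring the small ribosomal subunit, the initiator tRNA and the capped mRNA together at a start codon. eIF1 and eIF1A set the scanning state, eIF2 carries the tRNA and is recharged by eIF2B, eIF3 scaffolds the complex, and the cap-binding eIF4E, the scaffold eIF4G and the helicase eIF4A load the mRNA. Elongation factors then deliver each aminoacyl-tRNA (eEF1A, recharged by the eEF1B subunits) and move the ribosome on (eEF2), while eIF5A relieves ribosomes stalled at difficult peptide bonds. Translation in neurons is controlled largely through eIF4E and its binding proteins, through phosphorylation of eIF2, and through eEF2 kinase.

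Several of these factors are encoded by closely related gene pairs, and the levels of the pairs carry the main result below. The coding stretches of 60 bases in which each pair is most alike are shown first, since they show how far reads can tell the genes apart. Sequences are from GENCODE M21 transcripts on GRCm38, 5′ to 3′ on the coding strand, and capitals mark the bases that differ within the pair. Eef1a1 lies at chr9:78478449-78489151 and Eef1a2 at chr2:181147653-181157014, both on the minus strand, and the stretch is coding bases 73 to 132 of each.
Eef1a1: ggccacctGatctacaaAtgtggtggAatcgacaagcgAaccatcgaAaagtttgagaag
Eef1a2: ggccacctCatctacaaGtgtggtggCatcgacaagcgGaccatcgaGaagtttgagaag
Eif4a2 lies at chr16:23107444-23114136 on the plus strand (coding bases 538 to 597) and Eif4a1 at chr11:69666936-69672423 on the minus strand (532 to 591).
Eif4a2: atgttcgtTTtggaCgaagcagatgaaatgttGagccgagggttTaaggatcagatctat
Eif4a1: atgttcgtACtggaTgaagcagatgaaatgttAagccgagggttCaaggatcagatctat
Eif1 lies at chr11:100319885-100322096 and Eif1b at chr9:120492232-120495330, both on the plus strand, and the stretch is the first 60 coding bases.
Eif1: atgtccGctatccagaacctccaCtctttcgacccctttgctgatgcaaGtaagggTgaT
Eif1b: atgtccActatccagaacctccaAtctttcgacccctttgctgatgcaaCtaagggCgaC
Eif5a lies at chr11:69916714-69921958 on the minus strand and Eif5a2 at chr3:28781276-28798846 on the plus strand, with coding bases 94 to 153 shown.
Eif5a: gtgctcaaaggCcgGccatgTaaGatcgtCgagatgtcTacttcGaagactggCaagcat
Eif5a2: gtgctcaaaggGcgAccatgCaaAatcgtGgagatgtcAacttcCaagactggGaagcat

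Even these closest stretches differ at 5 bases in each of the first 3 pairs and at 8 bases in Eif5a and Eif5a2. Over the whole aligned coding sequence the identity was 81.0% for Eef1a1 and Eef1a2, 79.5% for Eif4a2 and Eif4a1, 81.1% for Eif1 and Eif1b and 75.5% for Eif5a and Eif5a2. No run of 31 coding bases was shared within any of the 4 pairs. Reads of these paralogs can therefore be told apart in their coding sequences. Processed pseudogenes are another matter: 49.8% of the 31-base runs in Eef1a1 transcripts, 47.6% in Eef1g and 31.1% in Eif4a1 recur in other annotated genes. For Eef1a1 these are 27 genes, of which Gm26377 overlaps it and 11 are pseudogenes in the tables with a summed level of 1.94 TPM in replicate 1 and 2.15 in replicate 2. Another 12 have no measured level, and whether reads from them entered Eef1a1 was not tested. TPM (a transcript count scaled to a fixed sum per library) is the authors' estimate of transcript abundance per effective length, so it can be compared between genes.

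The factors were abundant. At TPM of at least 1 in each library 61 of the 64 were detected, against 53.2% of all autosomal protein-coding genes. The 3 others were Eif4e1b, an eIF4E relative known from oocytes, with 0 reads in both libraries (a floor of 3 reads is 0.128 and 0.115 CPM), Eef1akmt3, a lysine methyltransferase, with 20 reads in each, and Eif2ak2, the double-stranded RNA-activated eIF2 kinase PKR. The median over all 64 was 39.2 TPM in replicate 1 and 36.8 in replicate 2, and the medians over all autosomal coding genes were 2.20 and 2.03 TPM. On the log2(TPM + 1) scale the medians differed by 3.65 ± 0.0098 (SD, n = 2). Much of that gap came from coding genes below 1 TPM: among detected genes only, the medians were 40.5 and 41.6 TPM for the factors and 13.4 and 13.5 TPM for coding genes. In both libraries 17 factors were at 100 TPM or more, 33 lay between 10 and 100 TPM and 11 were below 10 TPM. Eif4h, Eef1e1 and Eif3j1 crossed a limit between the libraries. The shares of all coding genes at these limits in both libraries were not computed. At or above percentile 90 of the autosomal coding genes in each library were 24 factors. Together the 64 factors took 0.750% and 0.754% of the reads assigned to genes. Levels are per pool: fewer cells expressing a gene and less of its RNA per cell cannot be told apart.

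**Figure D1:**
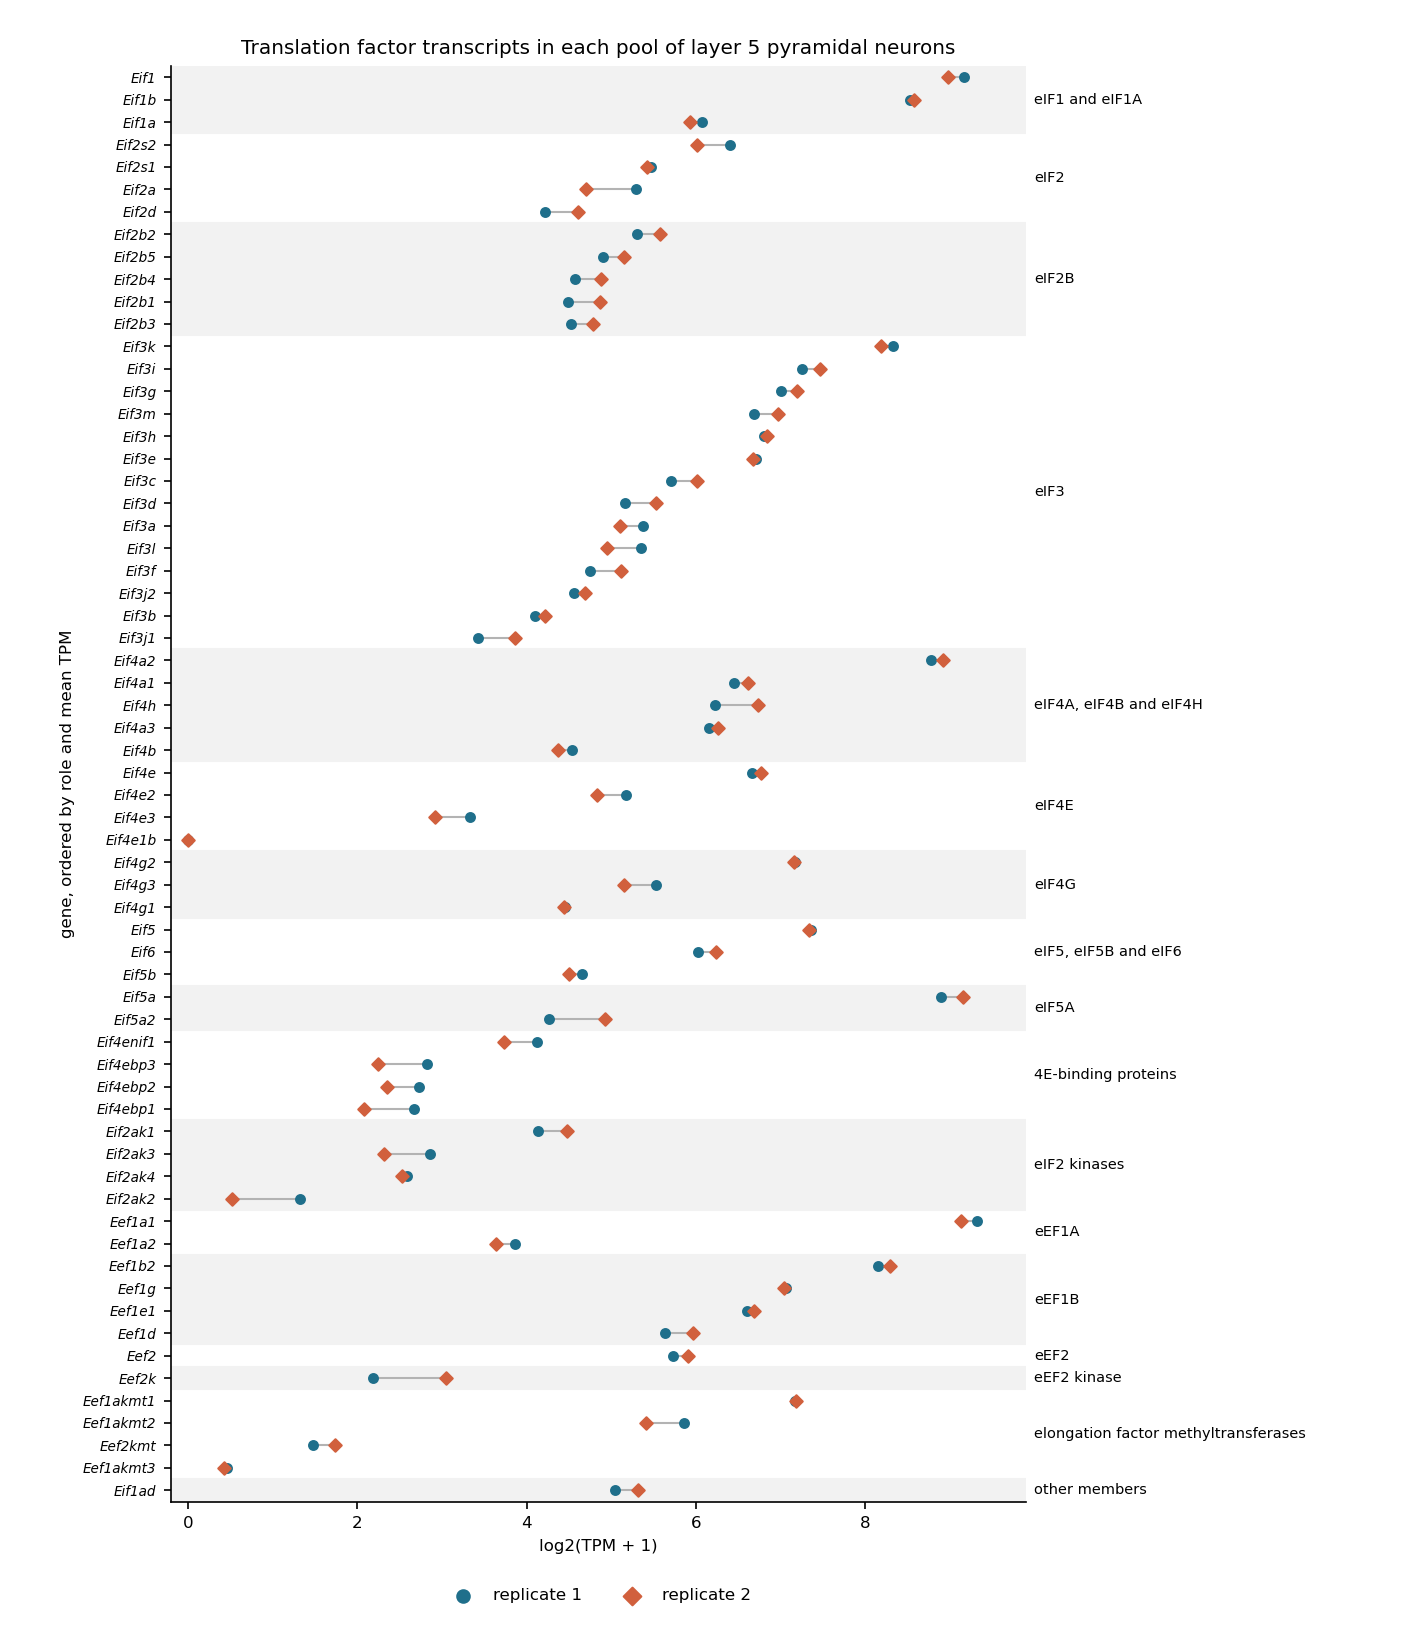
Level of each of the 64 factors on the log2(TPM + 1) scale (x axis), with genes grouped by role (y axis), circles for replicate 1, diamonds for replicate 2 and a line joining them. Levels run from 0 for Eif4e1b to 639 TPM for Eef1a1 in replicate 1, and the symbols of a gene mostly lie close together.

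The 2 libraries held 24171434 and 27946180 estimated reads, of which spike-ins took 4.28% and 5.32%. All 8 pan-neuronal, all 7 glutamatergic and all 7 layer 5 markers were detected in both, with medians of 369 and 417, 36.7 and 49.3, and 27.3 and 44.4 TPM. Layer 5 markers differed between the pools, summing to 2328 TPM in replicate 1 and 4794 in replicate 2. Pcp4 alone held 2134 and 4468 TPM of these sums. Of the 7 markers, 3 were at least 2-fold higher in replicate 2 (Pcp4, Fezf2 and Etv1). Bcl11b (12.2 and 10.2 TPM) and Crym (49.7 and 40.35 TPM) were instead higher in replicate 1. Markers of other cells differed too. The 7 GABAergic markers (6 detected) summed to 3874 TPM in replicate 1 and 1494 in replicate 2. Their medians, 153 and 94.8 TPM, were above the glutamatergic medians in both libraries, and the 7 glutamatergic markers summed to 619 and 799 TPM. Sst alone held 2506 and 844 TPM of the GABAergic sums, and Vip was at 153 and 0.03 TPM, from 4365 reads and 1 read. Gad1 was at 143 and 94.8 TPM, Gad2 at 31.7 and 11.05 TPM and Slc32a1 at 3.63 and 2.66 TPM. Slc17a7 was at 31.9 and 49.3 TPM, and the glutamatergic markers ran from Neurod2 (13.6 and 14.8 TPM) to Nrgn (335 and 521 TPM). The 6 microglial markers (5 detected) summed to 119 and 47.2 TPM, and the 5 erythroid markers (all detected) to 7.59 and 384 TPM. The 6 oligodendrocyte markers (all detected) summed to 487 and 621 TPM, with medians of 48.55 and 60.8 TPM, above the glutamatergic medians. The 6 astrocyte markers (all detected) summed to 417 and 462 TPM, with medians of 33.6 and 25.55 TPM. The 5 endothelial markers (4 detected) summed to 106 and 93.0 TPM. No list had a marker at 0 in both libraries. The part of these differences between the pools in the factor levels was not tested.

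Grouped by role, elongation factors were more abundant in the median than initiation factors, and both medians were far above that of their regulators. The 9 core elongation factors, counting eIF5A and Eef1e1 among them, had medians of 96.4 and 102 TPM in replicates 1 and 2. These medians are the levels of Eef1e1 itself, which belongs to the multi-tRNA synthetase complex, and medians without it were not computed. The 41 core initiation factors had medians of 43.2 and 45.3 TPM. They include Eif4a3, Eif4e2 and Eif6, whose other roles are given below, and Eif4e1b, which had no reads. Medians without Eif4a3, Eif4e2 and Eif6 were not computed. The elongation and initiation medians differed by 1.15 ± 0.0069 (SD, n = 2) on the log2(TPM + 1) scale. That SD covers the spread between the libraries only, not the spread over genes. The classes overlapped gene by gene. Elongation factors ran from 13.5 to 639 TPM in replicate 1 and from 11.5 to 567 TPM in replicate 2. Initiation factors ran from 0 to 573 TPM and from 0 to 502 TPM. The 9 regulators are the eIF2 kinases, the 4E-binding proteins and eEF2 kinase. Their medians were 5.62 and 4.10 TPM, below the core initiation factors by a log2 difference of -2.96 ± 0.32 (SD, n = 2). Regulators ran from 1.51 to 16.6 TPM in replicate 1 and from 0.43 to 21.4 TPM in replicate 2, overlapping both core classes. The 73 genes of cytosolic ribosomal proteins were at 318 and 299 TPM in the median, so that core initiation factors differed from them by -2.77 ± 0.11 (SD, n = 2).

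Of the elongation factors, Eef1a1, which delivers aminoacyl-tRNA to the ribosome, was at 639 TPM in replicate 1, the highest of all 64 there, and at 559 in replicate 2, just below Eif5a. Its paralog Eef1a2, known as the form that takes over in mature neurons and muscle, was at 13.5 and 11.5 TPM, from 536 and 511 reads. Eef1a1 was thus 47.4-fold and 48.6-fold higher in the 2 libraries, a difference of 5.48 ± 0.015 (SD, n = 2) on the log2(TPM + 1) scale. The libraries did not overlap, and Eef1a2 transcripts share no 31-base run with any other annotated gene. The whole-transcript levels rest on the deposited gene models, and the 3′-to-5′ coverage of a transcript is not given in these tables.

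The exchange factor eEF1B was uneven among its subunits. Eef1b2, the catalytic alpha subunit, was highest at 283 and 314 TPM, Eef1g was at 133 and 131 TPM, and Eef1d, the other exchange subunit, was lowest at 48.9 and 61.3 TPM. Eef1e1, which belongs to the multi-tRNA synthetase complex despite its name, was at 96.4 and 102 TPM. Neighbours in this order did not overlap between libraries. Eef2, the translocase, was at 52.2 and 59.1 TPM, so its transcripts were about as abundant as those of Eef1d and far below those of Eef1a1.

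eIF5A is the only protein known to carry hypusine, a modified lysine. Eif5a was at 473 TPM in replicate 1 and 567 in replicate 2, and Eif5a2 at 18.3 and 29.5 TPM. Eif5a was 25.9-fold and 19.2-fold higher, a log2 difference of 4.42 ± 0.29 (SD, n = 2). Both enzymes that make hypusine were present, Dhps at 89.4 and 86.6 TPM and Dohh at 52.1 and 69.1 TPM.

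**Figure D2:**
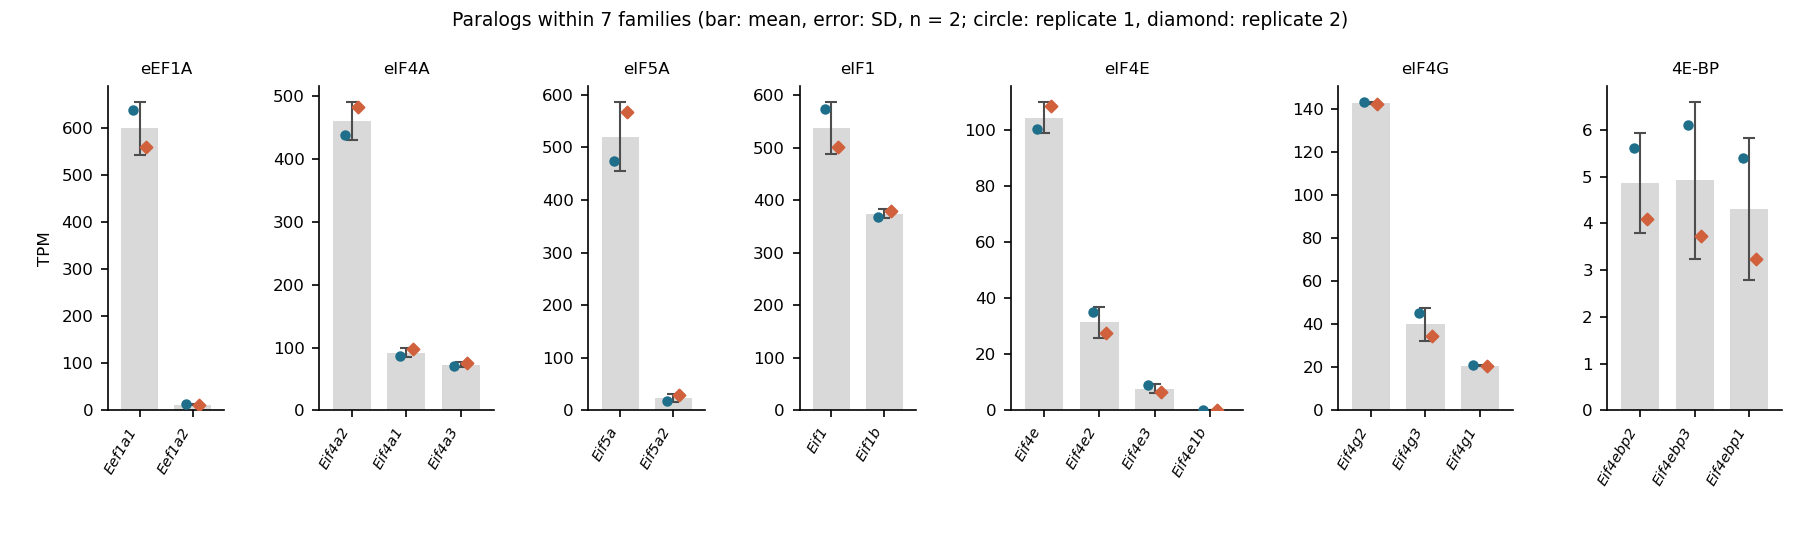
Level in TPM (y axis, from 0, with its own scale in each panel) of the members of 7 paralog families, with bars for the mean, error bars for the SD over the 2 libraries, circles for replicate 1 and diamonds for replicate 2. Eef1a1, Eif4a2, Eif5a, Eif4e and Eif4g2 stand above their relatives in both libraries, while the 3 4E-BP genes overlap.

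Among initiation factors the start-site factor Eif1 led, at 573 TPM in replicate 1 and 502 in replicate 2. Its paralog Eif1b was at 369 and 380 TPM, and the log2 difference was 0.52 ± 0.16 (SD, n = 2). Read numbers were nearly equal, 6359 and 6959 for Eif1 against 6031 and 6963 for Eif1b, and the order rests on the effective lengths, which were 555 and 619 bases for Eif1 and 818 for Eif1b. In protein-coding transcripts alone, a measure that exists for replicate 1, Eif1 was at 160.4 TPM and Eif1b at 369 TPM, and the log2 difference turned to -1.20. Which of the pair is more abundant thus depends on the transcripts counted. The autosomal eIF1A gene, Eif1a, was lower at 66.2 and 59.9 TPM, close to its X-linked relative Eif1ax at 65.1 and 55.5 TPM, which lies outside the autosomal set.

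Subunits of eIF2 were at moderate levels. Eif2s1, the alpha subunit whose phosphorylation slows initiation, was at 43.2 and 42.0 TPM, and Eif2s2, the beta subunit, at 83.7 and 63.5 TPM. The gamma subunit is encoded on the sex chromosomes, where Eif2s3x was at 20.0 and 14.6 TPM and Eif2s3y at 73.5 and 69.7 TPM. Eif2a and Eif2d, which are not eIF2 subunits but can also bring tRNA to the ribosome, were at 38.2 and 25.1 TPM and at 17.6 and 23.4 TPM. Their difference from each other, 0.59 ± 0.70 (SD, n = 2), did not exceed its spread.

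The 5 subunits of eIF2B, the exchange factor that recharges eIF2, were the most even of the role groups with more than 1 gene, as grouped here. They ran from 21.5 to 38.7 TPM in replicate 1 and from 26.6 to 46.8 TPM in replicate 2, a range of 1.80-fold and 1.76-fold. Eif4ebp1, Eif4ebp2 and Eif4ebp3 lay closer together, from 5.39 to 6.11 TPM and from 3.24 to 4.10 TPM, but their group also holds Eif4enif1. Eif2b2 was highest and Eif2b5 next, but in protein-coding transcripts alone, in replicate 1, Eif2b2 was at 24.4 TPM and Eif2b5 at 28.9 TPM. Neighbours among Eif2b4, Eif2b1 and Eif2b3 did not differ beyond their spread, and Eif2b4 exceeded Eif2b3 by 0.067 ± 0.031 (SD, n = 2) on the log2 scale. All 5 were higher in replicate 2, by 1.19-fold to 1.27-fold in CPM (reads scaled to a common library size), without any reaching 1.5-fold, where 53.1% of all genes were higher in replicate 2. Scaled to spike-ins in place of gene reads, all 5 were instead higher in replicate 1, by log2 ratios of 0.013 to 0.10.

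The 14 genes of eIF3, the largest initiation factor, covered a far wider range. Eif3k was highest at 320 TPM in replicate 1 and 291 in replicate 2, and Eif3j1, whose product binds loosely, was lowest at 9.76 and 13.5 TPM. That is a range of 32.8-fold and 21.5-fold. The 6 genes with an effective length under 1500 bases (Eif3k, Eif3i, Eif3g, Eif3m, Eif3h and Eif3e) lay between 102 and 320 TPM in replicate 1 and between 101 and 291 TPM in replicate 2. The other 8, at 1794 bases or more, lay between 9.76 and 51.2 TPM and between 13.5 and 63.4 TPM. The 2 length classes thus did not overlap in TPM, which itself divides reads by this length. In reads they overlapped: mean CPM was 160.6 for Eif3a and 160.9 for Eif3c, against 110.6 for Eif3h, 139.4 for Eif3i and 176.0 for Eif3k. The limit of 1500 bases falls in a gap of these same genes, between 1442 and 1794 bases. Eif3a and Eif3c, which belong to the conserved core, stood in the lower class at 40.5 and 33.5 TPM and at 51.2 and 63.4 TPM. Shorter transcripts were also more abundant among all detected coding genes, with medians of 35.3 and 35.4 TPM under 1500 bases and of 10.4 and 10.5 TPM above. Over the detected factors, effective length and TPM had a Spearman rho of -0.44 and -0.46, and over all detected coding genes of -0.36 and -0.36, across genes that are not independent replicates. The median of eIF3 exceeded that of eIF2B by 0.93 ± 0.050 (SD, n = 2) on the log2(TPM + 1) scale.

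**Figure D3:**
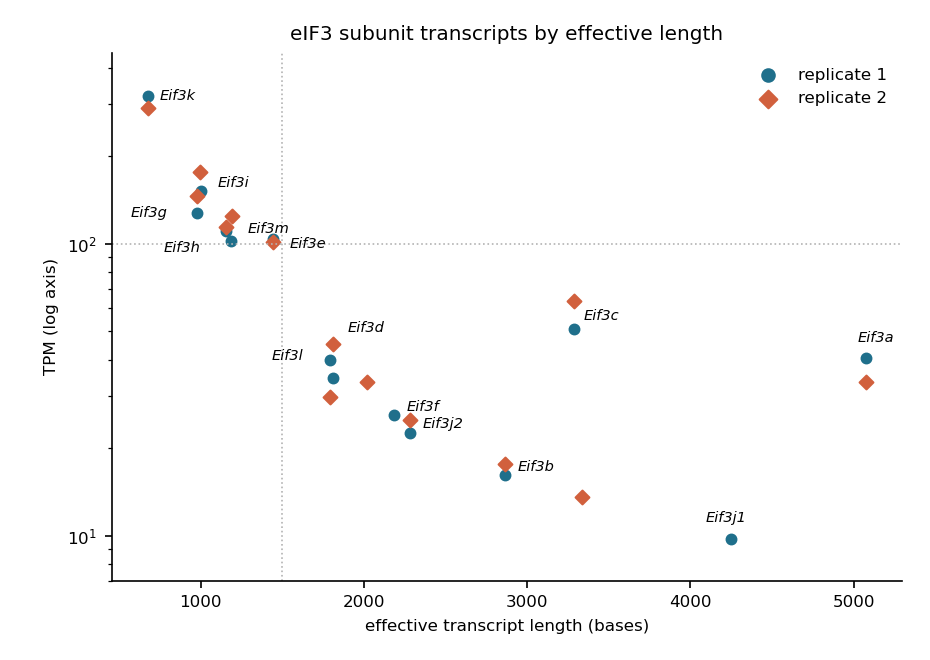
TPM (log axis) of the 14 eIF3 genes against effective transcript length in bases, with circles for replicate 1 and diamonds for replicate 2, and dotted lines at 1500 bases and 100 TPM. The 6 genes under 1500 bases all lie above 100 TPM in both libraries, and the 8 longer ones lie below it; the effective length of Eif3j1 differs between the libraries.

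Eif3j1 and Eif3j2 share much sequence: 94.9% of the 31-base runs of Eif3j2 recur in other genes, nearly all of them in Eif3j1, and 38.4% of those of the longer Eif3j1 recur, nearly all in Eif3j2. Eif3j2 was at 22.5 and 24.8 TPM. The authors' posterior SD of its count was 2.25% and 1.97% of the count, and that of Eif3j1 was 2.84% and 2.50%. The split of reads between these genes is uncertain, and their order in the eIF3 group with it.

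The helicase family eIF4A unwinds mRNA leaders, and the order of its genes was the same in both libraries. Eif4a2 was at 439 TPM in replicate 1 and 482 in replicate 2, and Eif4a1 at 86.4 and 96.96 TPM. Eif4a2 was 5.08-fold and 4.97-fold higher, a log2 difference of 2.32 ± 0.020 (SD, n = 2). Eif4a3, a part of the exon junction complex, was at 70.1 and 75.6 TPM. The helicase cofactor Eif4h was at 73.8 and 106 TPM, overlapping Eif4a1, and the cofactor Eif4b was lowest at 22.2 and 19.7 TPM.

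Cap binding was led by Eif4e, at 100.5 TPM in replicate 1 and 108 in replicate 2. Eif4e2, which encodes the repressive homologue 4EHP, was at 35.2 and 27.6 TPM, lower by 1.71 ± 0.32 (SD, n = 2) on the log2 scale. Eif4e3 was at 9.03 and 6.57 TPM. Gigyf2, the partner through which 4EHP represses mRNAs, was at 51.7 and 37.4 TPM.

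Of the eIF4G scaffold genes Eif4g2 was the highest and the canonical Eif4g1 the lowest. Eif4g2, whose product DAP5 lacks the eIF4E-binding site, was at 143 and 142 TPM. Eif4g3 followed at 45.4 and 34.6 TPM, and Eif4g1 at 20.9 and 20.8 TPM. Eif4g2 exceeded Eif4g1 by 2.72 ± 0.0010 (SD, n = 2) on the log2 scale, and by 2.31 when transcripts annotated as protein-coding in replicate 1 were taken alone. Those transcripts were at 16.5 TPM for Eif4g3 and 15.2 TPM for Eif4g1, so the gap between these genes rests on the non-coding ones.

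The remaining core initiation factors were Eif5, Eif6 and Eif5b. Eif5, the eIF2 GTPase activator, was at 164 and 161 TPM, Eif6, which keeps the subunits apart, at 64.1 and 74.5 TPM, and Eif5b, the joining GTPase, at 24.2 and 21.7 TPM. Their order was the same in both libraries without overlap. Eif1ad, an eIF1A-like gene, was at 32.1 and 39.0 TPM.

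All 3 genes of the 4E-BP repressors, which keep eIF4E from eIF4G until mTOR phosphorylates them, were expressed at low and similar levels. Eif4ebp1 was at 5.39 TPM in replicate 1 and 3.24 in replicate 2, Eif4ebp2 at 5.62 and 4.10 TPM, and Eif4ebp3 at 6.11 and 3.74 TPM. Eif4ebp2, known as the main brain form of the protein, exceeded Eif4ebp1 by 0.16 ± 0.15 (SD, n = 2) on the log2 scale, and the values of the 3 genes overlapped between libraries. These levels rest on 54 to 187 reads per gene and library. Eif4ebp3 overlaps the annotated transcript of AC115631.1 on the same strand, and 66.4% of its 31-base runs recur there, so its reads are uncertain. The eIF4E transporter Eif4enif1 was higher, at 16.5 and 12.3 TPM.

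Of the 4 eIF2 kinases the heme-regulated Eif2ak1 was highest, at 16.6 TPM in replicate 1 and 21.4 in replicate 2. Eif2ak3 (PERK, of the endoplasmic reticulum) was at 6.24 and 3.99 TPM and Eif2ak4 (GCN2, the amino acid sensor) at 5.01 and 4.75 TPM, and these did not differ beyond their spread. Eif2ak2 had 1.51 and 0.43 TPM. The kinase of eEF2, Eef2k, was at 3.55 and 7.29 TPM, but its reads, 340 and 436, differed less: the estimated effective length was 4784 bases in replicate 1 and 2672 in replicate 2.

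Methyltransferases that act on elongation factors were spread widely. Eef1akmt1 was at 143 and 145 TPM and Eef1akmt2 at 57.0 and 41.6 TPM. Eef2kmt was at 1.78 and 2.33 TPM, with a posterior SD of 10.7% and 7.75% of its 43 and 96 reads. Eef1akmt3 was at 0.38 and 0.34 TPM.

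Transcript estimates were used for replicate 1, so their spread between libraries is unknown. Of the 52 factors at 10 TPM or more there, 34 had at least 95% of their TPM in transcripts annotated as protein-coding, as did 58.4% of all autosomal coding genes at that level. Under 70% was found for 10 of the 52, and for 21.6% of the 6264 autosomal coding genes at that level, so the share of factors was close to the background. Eif2a had 23.0% in coding transcripts and 65.9% in a transcript annotated for nonsense-mediated decay. Eif1 had 28.0% in coding transcripts, and a single processed transcript, which has no annotated reading frame, held 57.3% of its TPM. In Eif4g3 the coding share was 36.4%, with nearly all the rest in 1 processed transcript.

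Eef1b2 divided into 50.7% coding and 47.1% decay-annotated transcripts, and the leading eIF4A gene, Eif4a2, into 62.9% and 34.5%. Eif4g2 had 55.4% in coding transcripts and 42.1% in processed ones. Eif5b and Eif2b2 had 41.2% and 36.8% in transcripts that retain an intron. Eif4a3 and Eef1akmt2 had 69.0% and 69.9% in coding transcripts. In contrast Eif4a1 was at 96.4%, and Eif1b, Eif5a, Eif5a2, Eef1a2 and Eif4e at 100%, while Eef1a1 was at 77.6% and Eif4g1 at 72.7%. Taking coding transcripts only, the log2 difference was 1.72 for Eif4a2 over Eif4a1 and 5.10 for Eef1a1 over Eef1a2. Eif2a overlaps Serp1, and Eef1b2 overlaps Ndufs1, on the opposite strand. The use of strand in counting is not known here, and reads from these neighbours could enter. In all, 18 factors overlap an antisense gene's exons and 13 a same-strand gene's. The share of all coding genes with such overlaps was not computed.

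**Figure D4:**
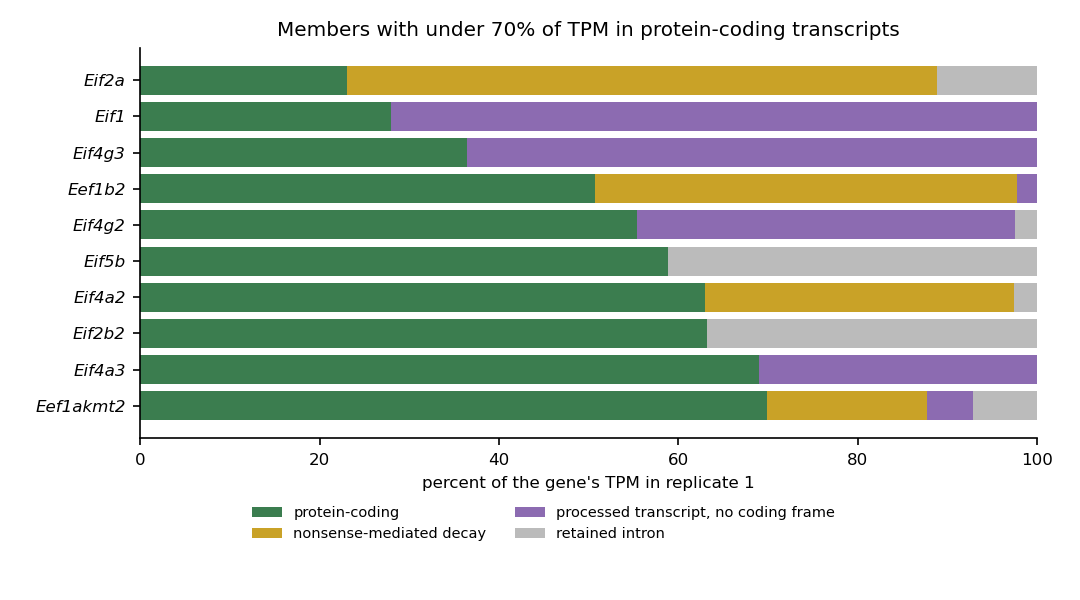
Percent of the gene's TPM in replicate 1 (x axis) held by each annotated transcript class, for the 10 factors at 10 TPM or more with under 70% in protein-coding transcripts (y axis). Decay-annotated transcripts fill the largest part of Eif2a, processed transcripts of Eif1 and Eif4g3, and retained introns appear mainly in Eif5b and Eif2b2.

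Between the libraries the factors varied little. None of the 57 at a mean CPM of at least 10 was 2-fold apart, where 4.46% of all 9190 genes and 4.52% of the 8516 autosomal coding genes were. Of all genes, 2.6% were 2-fold higher in replicate 1 and 1.86% in replicate 2. With 57 factors a share of 0 is near that background, and it was not tested. The median absolute log2 ratio was 0.20 over the factors and 0.26 over all genes. At 1.5-fold 1 factor differed, Eif5a2, against 16.9% of genes in either direction and 8.98% higher in replicate 2. Its reads were 1799 and 3260, so it was 1.62-fold higher in replicate 2, a log2 ratio of -0.69 for replicate 1 over replicate 2.

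Eif2a had the highest ratio of these factors, with 1444 and 1106 reads and a log2 ratio of 0.53. Below the abundance limit, Eif2ak2 had 89 reads in replicate 1 and 14 in replicate 2, a CPM ratio of 7.11 with an exact 95% interval of 4.02 to 13.5 that covers counting error only. At a mean CPM of at least 1, 10.4% of genes were 2-fold apart and 6.41% were 2-fold higher in replicate 1. PKR transcripts are known as interferon-induced and widely expressed, and both the microglial markers (119 and 47.2 TPM summed) and the GABAergic markers (3874 and 1494 TPM) were higher in replicate 1; their part in this ratio was not tested. By CPM 23 of the 57 factors were higher in replicate 1 and 34 in replicate 2, where 46.9% of all genes were higher in replicate 1. Scaled to spike-ins, which moved the median of all genes to a log2 ratio of 0.33, 53 of the 57 were higher in replicate 1, still with none at 2-fold.

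**Figure D5:**
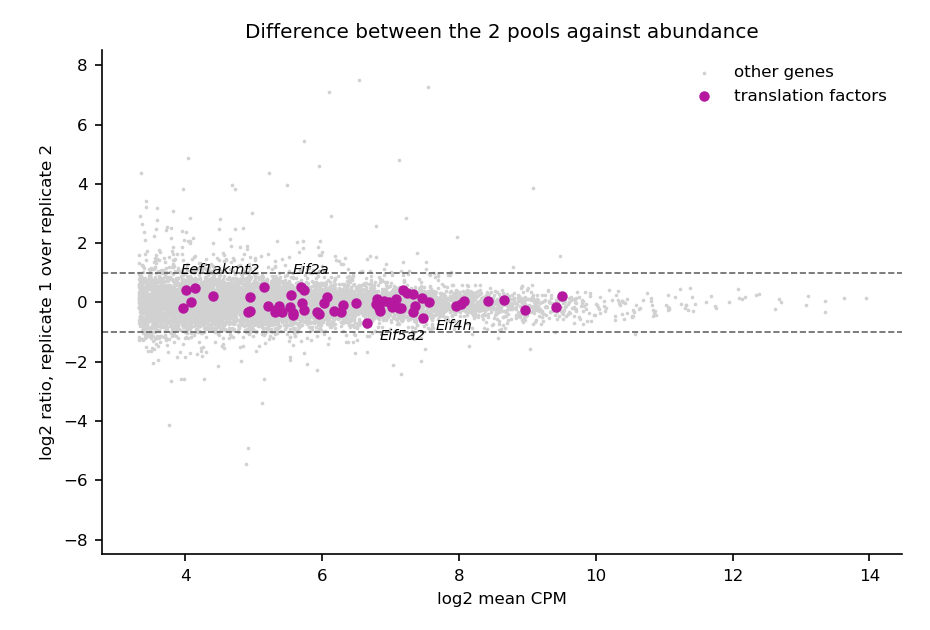
Log2 ratio of replicate 1 over replicate 2 (y axis) against log2 mean CPM (x axis) for genes at a mean CPM of at least 10, other genes in grey and the 57 translation factors in purple, with dashed lines at 2-fold. All 57 lie between the lines, from Eif5a2 at -0.69 to Eif2a at 0.53.

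Of 48 genes that act with or on these factors 45 were detected, against 53.2% of autosomal coding genes. None of the 40 at a mean CPM of at least 10 was 2-fold apart between libraries, which is near the 4.46% of all genes. All 13 genes of mTOR and cap signalling were detected, with medians of 8.83 and 9.33 TPM. The kinase Mtor was at 6.77 and 9.66 TPM and its activator Rheb far higher at 416 and 412 TPM, while Pdcd4, an eIF4A inhibitor, was at 115 and 113 TPM. Of 9 targets of the integrated stress response, which follows eIF2 phosphorylation, 6 were detected, with medians over all 9 of 5.94 and 6.98 TPM. Its transcription factor Atf4 was at 65.6 and 79.2 TPM, Asns at 107 and 115 TPM and Ddit3 at 63.1 and 51.8 TPM, while Trib3 had 0.05 and 0.00 TPM. All 9 partners at the cap and the poly(A) tail were detected, among them Pabpc1 at 69.97 and 48.8 TPM and the FMRP partner Cyfip2 at 115 and 112 TPM. All 6 termination and recycling factors and all 9 mitochondrial translation factors were also detected, with medians of 26.0 and 27.3 TPM and of 18.9 and 19.4 TPM.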

How the data were processed

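Both libraries had been quantified on mm10 with annotation M4, per the README deposited beside each table. Aligner, quantifier and strand setting: not given in the sources used here. The authors deposited, per gene, an expected count, TPM, FPKM and a posterior SD of the count (a score of how uniquely reads were assigned), and per transcript, used for replicate 1, TPM and the percent of the gene's TPM. TPM sums include spike-ins. Gene symbols, transcript classes and positions were those of GENCODE M21 (GRCm38, the same build), which matched 42462 of 43346 gene identifiers. Another 26248 numeric identifiers and 97 spike-in entries stayed out of library sizes.

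Differences of level are differences of log2(TPM + 1), or of medians of it, in each library, with their mean and SD. Expected counts were rounded, scaled by TMM (edgeR 4.0.16, R 4.3.3) to CPM, and compared between libraries as log2((CPM + 1)/(CPM + 1)) at a mean CPM of at least 10. Values were computed in Python 3.11.15. The members follow the naming rule, which used no measured value. That rule and the lists were set with earlier results of these data known. Named are all paralogs of 7 families, the highest and lowest gene of each role and factors past 2-fold in full, with other members where they complete a role, and transcript shares under 70%; pathway genes and further examples were chosen after their values were seen. Read floors and intervals cover counting error only. Alternatives were other pseudocounts, filters, units, scalings, coding transcripts only, and each library alone.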

Additional observations from a re-analysis of the deposited data

How the results depend on the processing

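Of the 65 alternative values of the 12 differences of level, 64 kept their sign. This count overstates what was tested. Another pseudocount or FPKM keeps the order of 2 genes within a library, so a gene pair could not reverse there. Each library alone gives 1 of the 2 values averaged in the main result. For gene pairs, coding transcripts alone was the alternative that could change the order. Only Eif1 over Eif1b reversed, to -1.20 with protein-coding transcripts alone in replicate 1; the cause is the alternative's own construction, which leaves out the processed transcripts of Eif1. Coding transcripts alone also gave 5.10 for Eef1a1 over Eef1a2, 1.72 for Eif4a2 over Eif4a1 and 2.31 for Eif4g2 over Eif4g1. A pseudocount of 0.1 gave 4.10 for the factors over all coding genes, 1.16 for elongation over initiation factors, 5.57 for Eef1a1 over Eef1a2 and 2.77 for Eif4g2 over Eif4g1. FPKM in place of TPM gave 3.55, 5.45 and 2.71 for the factors over coding genes, Eef1a1 over Eef1a2 and Eif4g2 over Eif4g1. Keeping genes at a mean TPM of at least 1 gave 1.71 for the factors over coding genes and 1.12 for elongation over initiation. Means in place of medians gave 2.99, 0.98 and -2.44 for these and for initiation factors over ribosomal proteins. Each library alone gave 3.64 to 3.65 for the factors over coding genes, and no difference changed sign. The count of factors 2-fold apart rose from 0 to 1 (Eif2ak2) with a CPM limit of 1 or none, and to 1 (Eif5a2) at 1.5-fold. Leaving out a library gives no count between libraries. No paired analysis was possible because there is 1 group. Depth limits the 4E-BP genes, Eif2ak2, Eef2kmt and Eef1akmt3, all under 200 reads.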
